A study of Mus musculus with 15 samples.

Results

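The genes described here are 10 genes of fatty acid uptake and mitochondrial beta-oxidation, chosen by name and matched by symbol to their Ensembl identifiers in the table of gene counts from mouse gastrocnemius, the large calf muscle. All 10 were found among the 55450 genes of the table, and all 10 were among the 16920 genes with enough reads to be tested. RNA was sequenced from 15 aged female C57BL/6JN mice over 17 months old, with 1 library from each mouse. Mice had been scored for 5 frailty markers (treadmill distance, grip strength, Rotarod latency, body weight and a frailty index), and those with at most 1 positive marker formed the Low group (labelled robust) while those with 2 or more formed the High group (labelled frail). Low Run (n = 4; mice D57, D61, D66 and D68) and High Run (n = 4; D49, D52, D53 and D62) mice completed 2 bouts of treadmill running down a decline of 22° at 13 m/min, and the muscle was taken 24 h after running ended. Low Control (n = 4; D8, D9, D11 and D98) and High Control (n = 3; D23, D25 and D67) mice stayed sedentary in their cages. The frailty groups rest on cut-offs set within the cohort, so frailty was observed and not assigned. The comparisons ask how running, frailty marking and their combination relate to the level of each transcript.

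Long-chain fatty acids are released from circulating triglyceride at the vessel wall by lipoprotein lipase, cross the fibre membrane with the help of CD36 and are carried through the cytosol by fatty acid binding protein. They enter the mitochondrion as carnitine esters, made by carnitine palmitoyltransferase 1 on the outer membrane and turned back into acyl-CoA by carnitine palmitoyltransferase 2 on the inner membrane. Each turn of beta-oxidation in the matrix starts with an acyl-CoA dehydrogenase chosen by chain length, and for long chains the remaining steps are carried out by the trifunctional protein, a complex of alpha and beta subunits on the inner membrane. Oxidative muscle depends on this pathway for fuel during sustained work, and many of its genes are targets of the PPAR family of nuclear receptors.

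The members fall into 4 roles, and GENCODE M21, which annotates each of the 10 as protein-coding, gives their positions on GRCm38 (mm10). For uptake these are Cd36 (ENSMUSG00000002944, chromosome 5 from 17781690 to 17888801, minus strand), the membrane fatty acid translocase; Lpl (ENSMUSG00000015568, chromosome 8 from 68880491 to 68907448, plus strand), lipoprotein lipase; and Fabp3 (ENSMUSG00000028773, chromosome 4 from 130308595 to 130315463, plus strand), the muscle and heart fatty acid binding protein. The carnitine shuttle is represented by Cpt1b (ENSMUSG00000078937, chromosome 15 from 89416405 to 89425863, minus strand), the muscle form of the outer membrane enzyme, and by Cpt2 (ENSMUSG00000028607, chromosome 4 from 107903981 to 107923610, minus strand). Acadm (ENSMUSG00000062908, chromosome 3 from 153922357 to 153944632, minus strand), Acadl (ENSMUSG00000026003, chromosome 1 from 66830839 to 66863277, minus strand) and Acadvl (ENSMUSG00000018574, chromosome 11 from 70010183 to 70015411, minus strand) encode the medium-, long- and very-long-chain acyl-CoA dehydrogenases. Hadha (ENSMUSG00000025745, chromosome 5 from 30118304 to 30155162, minus strand) and Hadhb (ENSMUSG00000059447, chromosome 5 from 30155248 to 30184593, plus strand) encode the alpha and beta subunits of the trifunctional protein.

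Hadha and Hadhb lie head to head, and the 85 bases that separate them in GENCODE M21 are shown because they lie between both genes. RefSeq places the starts at 30154980 for Hadha and 30155253 for Hadhb, 273 bases apart, so its start of Hadha lies outside the stretch shown. The sequence is from RefSeq's promoter table (GRCm38.p6), chr5:30155163-30155247, plus strand, with both copies of GGGCGG, the GC box, in capitals.
Hadha to Hadhb: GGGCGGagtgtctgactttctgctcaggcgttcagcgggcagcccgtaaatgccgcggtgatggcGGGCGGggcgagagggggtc
RefSeq promoters (250 bases before to 50 bases after the start) were matched for 8 of the 10 members, the others being Lpl and Cpt1b. The Cd36 window, chr5:17835847-17836146 on the minus strand, lies inside the gene as GENCODE M21 places it. It does not cover the outer end of that gene at 17888801. On either strand, GGGCGG occurred in 5 of the 8 (Acadl, Cpt2, Cd36, Hadha and Hadhb) and in 35.7% of all 32851 promoters in the table. The windows of Hadha and Hadhb overlap by 228 bases. The only match of Hadha is the GGGCGG that opens the stretch shown above, and the same bases are also a match of Hadhb. Hadha and Hadhb are therefore not independent of each other in this count. AGGTCA, the core hexamer bound by many nuclear receptors, occurred in 3 of the 8 (Acadm, Cd36 and Acadvl) and in 16.3% of all promoters. TCAAGGTCA, a longer form that contains this hexamer, was in none of the 8 and in 0.423% of all promoters, and DR1, the direct repeat of the hexamer with 1 base between the copies, was in none of the 8 and in 0.0396%. CACGTG, the E-box, was in none of the 8 and in 7.15% of all promoters, and CCAAT was in 1 of the 8 (Cd36) and in 37.4%. These are matches of letters in windows of this length and not sites of binding.

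Near-identical processed copies of Hadhb and Fabp3 elsewhere in the genome also held many reads, which leaves the level of both genes uncertain. The pseudogene Gm13910 (ENSMUSG00000063684), at chr2:108948806-108950233 on the plus strand, matched the 1428 coding bases of Hadhb with 3 mismatches (G201A, A393G and G743A, with the base of Hadhb first and positions counted from the first coding base). Fabp3-ps1 (ENSMUSG00000056366), at chr10:86731987-86732388 on the minus strand, matched the 402 coding bases of Fabp3 with 3 mismatches (A40T, C297T and G334A). Stretches of 41 bases from the GENCODE transcripts are shown to make plain how few bases separate gene from copy, with the mismatched base in capitals.
Hadhb, coding bases 181 to 221: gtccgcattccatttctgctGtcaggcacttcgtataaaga
Gm13910, the same stretch: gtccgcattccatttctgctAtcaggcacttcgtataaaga
Fabp3, coding bases 20 to 60: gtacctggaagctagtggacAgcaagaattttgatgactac
Fabp3-ps1, the same stretch: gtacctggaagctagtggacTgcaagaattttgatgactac
In the deposited counts Gm13910 held between 4246 and 6856 reads in a mouse and Hadhb between 1596 and 2482, so the copy held from 69.6% to 75.0% of the summed reads of the pair (median 73.0%). Fabp3-ps1 held from 38.5% to 41.6% of the summed reads of its pair (median 39.8%). Whether these reads came from transcripts of the gene or of the copy was not tested. These shares differed little between the 15 mice, and values for Hadhb and Fabp3 are given as deposited unless the copies are said to be added. Of the 3372 annotated exon bases of Cpt1b, 2744 (81.4%) are shared on the same strand with the overlapping gene Gm44502 (ENSMUSG00000116461), which itself had at most 1 read in any mouse. Only 628 bases belong to Cpt1b alone, so its level is uncertain and was not compared with those of other genes.

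The total count per library ranged from 19395125 to 30699216, and levels below are in CPM, read counts scaled to a common library total after TMM normalization. D9 of Low Control and D62 of High Run stood apart from the other 13 mice along the first principal component of all tested genes, which held 27.9% of the variance (scores of -90.3 and -58.1, against -19.7 to 27.8 in the others). Both mice touch the members' results, which are therefore also given without them. The 6 markers of skeletal muscle fibres summed to between 107633 and 176419 CPM in every mouse, and the sums over 6 adipocyte, 6 endothelial, 6 macrophage, 4 fibroblast and 4 erythroid markers reached at most 319, 301, 147, 1175 and 3729 CPM. No marker of these lists was at 0 in any mouse, whereas 3 heart markers summed to at most 6.74 CPM, with up to 2 of them at 0. In bulk muscle, fewer cells of a type and less RNA per cell cannot be told apart.

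Per kilobase of transcript, the members other than Cpt1b spanned a wide range in sedentary Low mice. Fabp3 stood first with 255 ± 90.8 CPM per kb (mean ± SD, n = 4), followed by Acadvl with 216 ± 50.6, Acadl with 199.6 ± 75.3, Acadm with 173 ± 15.5, Lpl with 171 ± 63.3, Cd36 with 159.7 ± 74.3 and Hadha with 122 ± 20.03. From Fabp3 to Hadha, each gene's range over the 4 mice overlapped that of the next, so neighbours in this order did not differ beyond their spread. Hadhb (40.6 ± 6.33 CPM per kb) lay below Hadha without overlap, and Cpt2 (31.6 ± 3.59) overlapped Hadhb. When the reads of the copies were added, Hadhb was at 152 ± 21.4 and Fabp3 at 421 ± 145 CPM per kb, values that hold for the genes only if the added reads are theirs. The order of the first genes differed in High Run mice, where Acadl came first with 202 ± 43.8 CPM per kb and Fabp3 second with 188 ± 40.7, again with overlapping ranges.

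**Figure D1:**
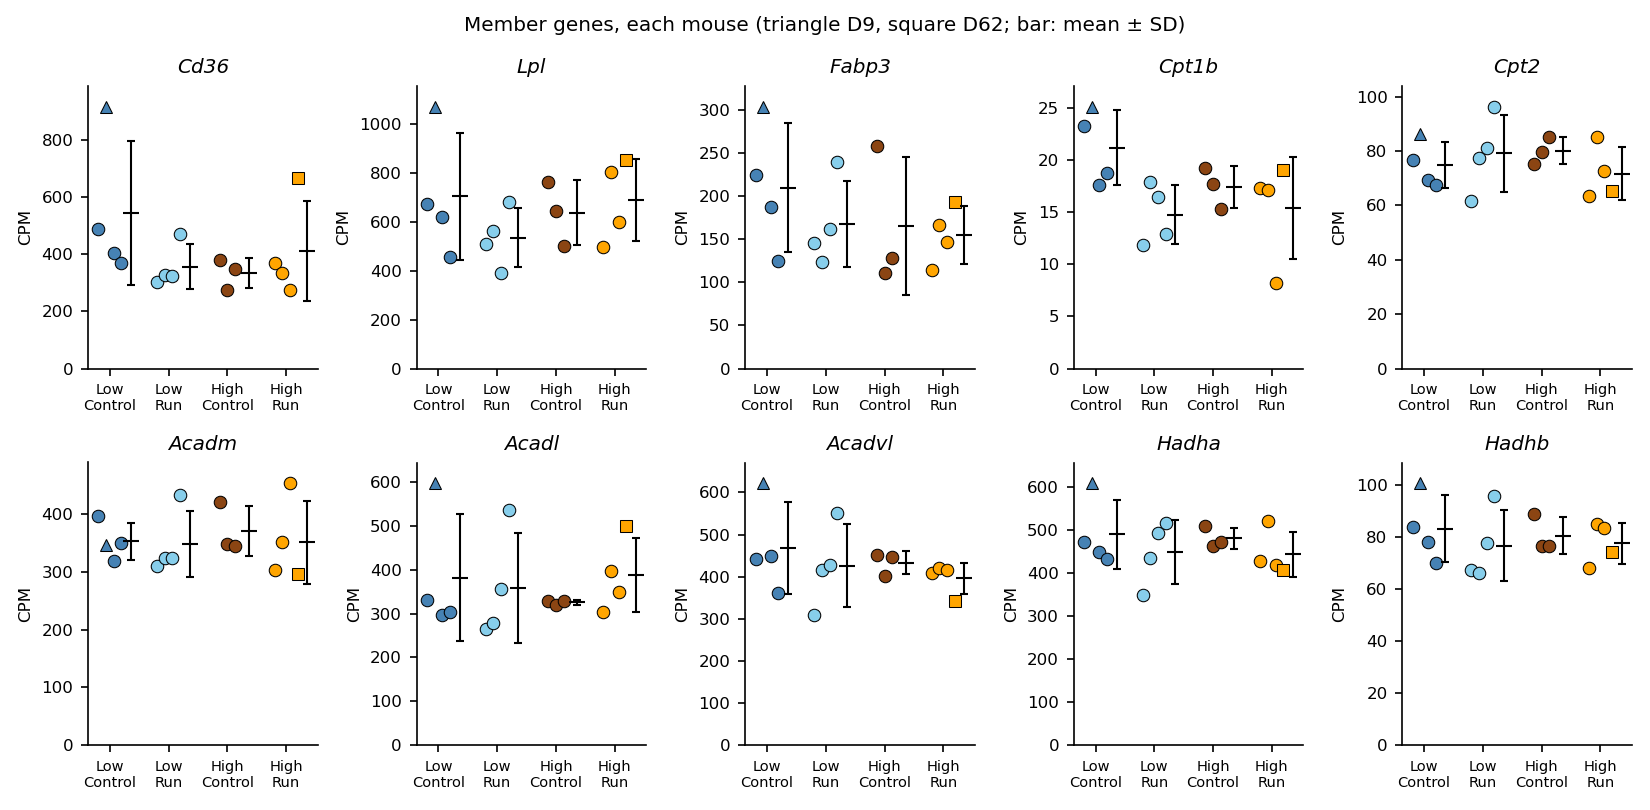
CPM of each of the 10 members in each mouse (y axis, linear and starting at 0) by group (x axis), with 1 point for each mouse and a bar for the mean ± SD; D9 is drawn as a triangle and D62 as a square. In all panels the groups overlap, and D9 is the highest of the 15 mice for 8 of the 10 genes.

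Low Run mice had lower mean levels than Low Control mice for 9 of the 10 members, with the widest differences in the uptake genes and Cpt1b and near-equal levels of the matrix enzymes. The log2 fold change (fitted with edgeR over all 15 mice) was -0.61 for Cd36, -0.52 for Cpt1b, -0.40 for Lpl and -0.32 for Fabp3, whereas the other 6 lay between -0.14 and 0.08. The median over the 10 members was -0.13 against 0.02 over all tested genes, and 48.1% of all tested genes were lower. Leaving out D9 brought the members' median to -0.031, and leaving out D68 brought it to -0.32. None of the 10 members passed a false discovery rate of 0.1 in edgeR's quasi-likelihood test, and neither did any of the 16920 genes (0% called), although 2274 genes (13.4%) had an unadjusted p under 0.05. Among the members, 1 of 10 (Cpt1b) had an unadjusted p below 0.05, a share below that of all genes. DESeq2's Wald test called 11 genes and voom with sample quality weights 0, none of them a member.

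For the uptake genes, the difference narrowed most without sedentary mouse D9 and widened without some other mice. Leaving out single mice, the log2 fold change of Cd36 ranged from -0.78 (without D68) to -0.25 (without D9). That of Lpl ranged from -0.56 (without D98) to -0.13 (without D9), and that of Fabp3 from -0.56 (without D68) to -0.10 (without D9). Cd36 was at 488, 914, 402 and 367 CPM in Low Control mice D8, D9, D11 and D98 and at 303, 327, 322 and 472 CPM in Low Run mice D57, D61, D66 and D68. D9 was far above every other mouse, and D68 of the Low Run group lay within the Low Control range. The log2 fold change of Cd36 was -0.61 (SE 0.30, 95% interval -1.24 to 0.03; adjusted p = 0.377 in edgeR), and without D9 and D62 it was -0.25 (adjusted p = 0.685 in edgeR). Lpl was at 675, 1071, 619 and 458 CPM in Low Control (in the same order of mice) and at 509, 563, 392 and 682 CPM in Low Run mice. Again D9 was the highest and the groups overlapped. Its log2 fold change was -0.40 (SE 0.25, interval -0.93 to 0.14; adjusted p = 0.456 in edgeR), and -0.13 without D9 and D62. Fabp3 was at 224, 303, 188 and 124 CPM in Low Control and at 145, 124, 162 and 239 CPM in Low Run mice. D98 of Low Control was level with the lowest Low Run mouse, and the log2 fold change was -0.32 (SE 0.30; adjusted p = 0.603 in edgeR), or -0.10 without D9 and D62. Adding the reads of Fabp3-ps1 left it at -0.31.

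Adipocytes also express Cd36 and Lpl, and capillary endothelium expresses Cd36. All 6 adipocyte markers were lower in Low Run than in Low Control mice, 2 of them with an unadjusted p under 0.05, and their summed level ranged from 114 to 200.3 CPM in Low Control and from 90.1 to 167 CPM in Low Run mice. Of the 6 endothelial markers 5 were lower, none with an unadjusted p under 0.05, and their sum ranged from 259 to 286 CPM in Low Control and from 192 to 278 CPM in Low Run mice. Cd36 and Lpl were the highest of all 15 mice in D9. The adipocyte sum of D9 was 114 CPM, the lowest of the Low Control mice, and its endothelial sum was 272 CPM. All 4 erythroid markers were lower in Low Run mice (median log2 fold change -1.19), none with an unadjusted p under 0.05. The part of these cell types in the group difference was not tested.

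Cpt1b differed most clearly in relation to its spread. It was at 23.3, 25.1, 17.6 and 18.8 CPM in Low Control mice and at 11.9, 17.9, 16.5 and 12.9 CPM in Low Run mice. D61 of the Low Run group stood just above D11 of the Low Control group, and the other 3 Low Run mice lay below all Low Control mice. The log2 fold change was -0.52 (SE 0.22, interval -0.996 to -0.04; adjusted p = 0.359 in edgeR), and it lay between -0.63 and -0.43 when single mice were left out. Without D9 and D62 it was -0.44 (adjusted p = 0.654 in edgeR) and with voom -0.34 (adjusted p = 0.615), and in neither was the unadjusted p under 0.05. Cpt2, its partner on the inner membrane, was at 76.8, 86.2, 69.4 and 67.4 CPM in Low Control and at 61.6, 77.4, 81.2 and 96.2 CPM in Low Run mice. Low Run mice spanned the whole Low Control range and beyond, and the log2 fold change was 0.08 (SE 0.15, interval -0.23 to 0.39).

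The 3 acyl-CoA dehydrogenases differed little between the Low groups. Acadm was at 396, 347, 319.9 and 350.4 CPM in Low Control and at 311, 324, 324 and 433 CPM in Low Run mice, with a log2 fold change of -0.02 (SE 0.16, interval -0.35 to 0.31). Low Run mouse D68 was the highest of both groups and the other 3 Low Run mice lay at the lower end. Acadl was at 331, 598, 296 and 304 CPM in Low Control and at 264, 279, 357 and 537 CPM in Low Run mice. A single mouse in each group, D9 and D68, lay far above the rest, and the log2 fold change of -0.09 (SE 0.25, interval -0.62 to 0.45) became 0.20 without D9 and D62. Acadvl was at 443, 621, 448 and 361 CPM in Low Control and at 308, 417, 429 and 550.4 CPM in Low Run mice. Its log2 fold change was -0.14 (SE 0.18, interval -0.52 to 0.24), and 0.02 without D9 and D62.

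Both subunits of the trifunctional protein were close to level. Hadha was at 471, 608, 449 and 432 CPM in Low Control and at 349, 436, 493 and 517 CPM in Low Run mice, with a log2 fold change of -0.13 (SE 0.15, interval -0.44 to 0.19). Hadhb was at 84.0, 101, 78.2 and 70.1 CPM in Low Control and at 67.2, 66.3, 77.7 and 95.9 CPM in Low Run mice, with a log2 fold change of -0.12 (SE 0.15), or -0.09 when the reads of its copies were added. Both subunits were at -0.02 without D9 and D62. For both the highest mouse was D9 and the groups overlapped.

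**Figure D2:**
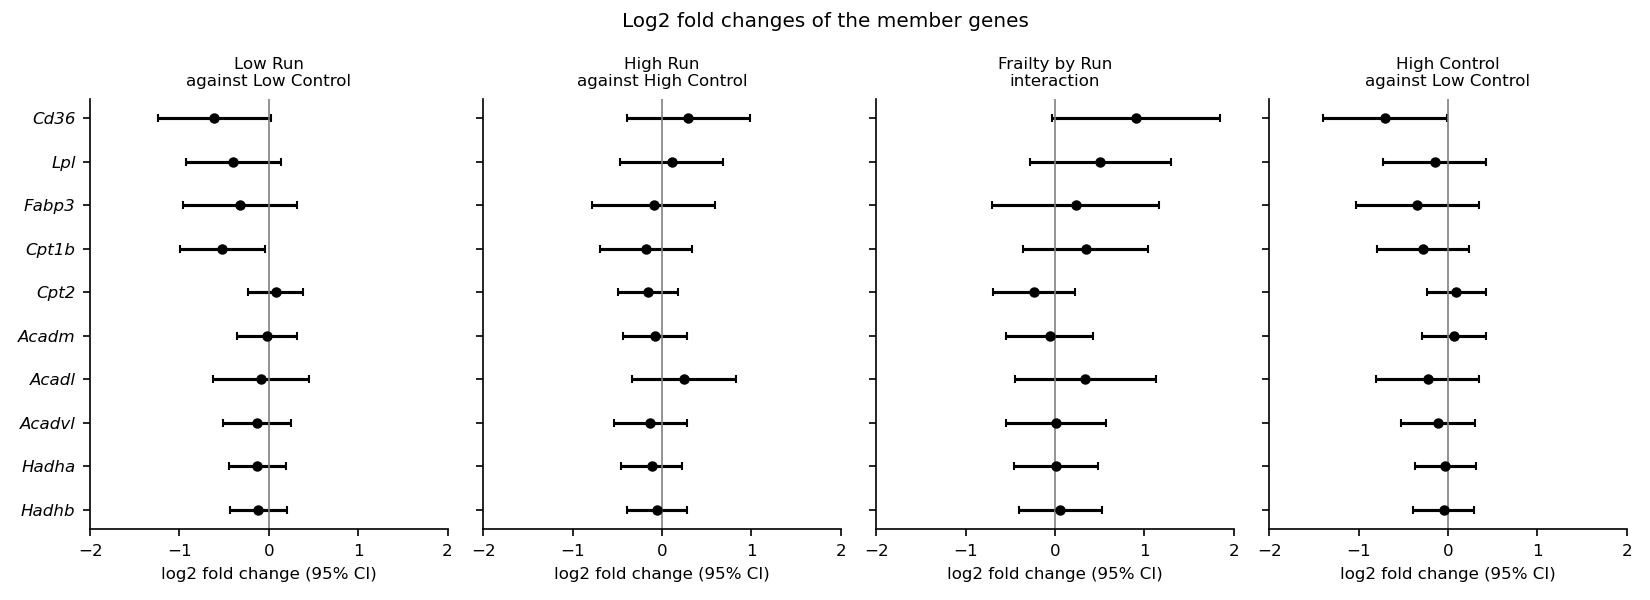
Log2 fold changes (x axis; points, with bars for the 95% interval from edgeR's quasi-likelihood fit) of the 10 members (y axis) in 4 comparisons. The interval of Cpt1b in the Low groups and that of Cd36 between the control groups end just below 0, and the others include 0.

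In High mice, running went with no common direction in the uptake genes and with small differences elsewhere. Cd36, Lpl and Acadl were higher in High Run than in High Control mice and the other 7 members lower, with log2 fold changes between -0.18 and 0.30. The median over the 10 members was -0.09 against 0.05 over all tested genes, and 42.8% of all tested genes were lower. Leaving out single mice moved the members' median between -0.13 (without D25) and 0.019 (without D23), and it was -0.057 without D9 and D62. In edgeR's quasi-likelihood test none of the members passed (adjusted p from 0.964 to 0.987) and 0% of all genes were called. The unadjusted p was under 0.05 for 877 genes (5.18%) and for no member. DESeq2's Wald test called 15 genes and voom with sample quality weights 45, none of them a member.

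Cd36 was at 379.6, 275.0 and 346 CPM in High Control mice D23, D25 and D67 and at 369, 333, 273 and 664 CPM in High Run mice D49, D52, D53 and D62. The first 3 High Run mice covered the same range as the High Control mice and D62 stood far above it. The log2 fold change of 0.30 (SE 0.32) became -0.04 without D9 and D62. Lpl was at 766, 647 and 499.7 CPM in High Control and at 499.3, 804, 598 and 853 CPM in High Run mice, with a log2 fold change of 0.11 (SE 0.27), or -0.015 without D9 and D62. For this gene D52 and D62 lay above the High Control range. Fabp3 was at 258, 110.2 and 129 CPM in High Control and at 114, 166, 147 and 193 CPM in High Run mice. Among High Control mice D23 lay far above the others, and the log2 fold change was -0.09 (SE 0.32).

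For the shuttle and matrix genes, log2 fold changes in High mice lay between -0.18 and 0.25. Cpt1b was at 19.3, 17.7 and 15.3 CPM in High Control and at 17.3, 17.1, 8.23 and 19.02 CPM in High Run mice, with a log2 fold change of -0.18 (SE 0.24, interval -0.69 to 0.33). D53 alone lay below the High Control range. Cpt2 was at 75.3, 79.6 and 85.3 CPM in High Control and at 63.6, 85.2, 72.8 and 65.3 CPM in High Run mice, where 3 of 4 mice lay below the High Control range (log2 fold change -0.16, SE 0.16). Its log2 fold change was -0.26 without D52 and -0.11 without D67. Acadm was at 421, 348 and 345 CPM in High Control and at 303, 352, 454 and 296 CPM in High Run mice (log2 fold change -0.08, SE 0.17). Acadl was nearly constant in High Control mice, at 329.8, 319.7 and 329.9 CPM, and spread from 305 CPM in D49 through 349 in D53 and 397 in D52 to 500.5 in D62 of High Run mice (log2 fold change 0.25, SE 0.27, and 0.10 without D9 and D62). Acadvl was at 450.3, 402 and 448 CPM in High Control and at 409, 420.2, 415 and 341 CPM in High Run mice. D62, which was among the highest mice for Acadl, was the lowest of both groups for Acadvl. The log2 fold change of Acadvl was -0.13 (SE 0.19), or -0.071 without D62. Hadha was at 508, 463 and 471 CPM in High Control and at 428, 522, 418 and 408 CPM in High Run mice (log2 fold change -0.12, SE 0.16). Without D52 its log2 fold change was -0.21, and over all alternatives it lay between -0.21 and -0.0096. Hadhb was at 88.9, 76.6 and 76.4 CPM in High Control and at 67.995, 84.9, 83.3 and 74.3 CPM in High Run mice (log2 fold change -0.05, SE 0.16). For both subunits the groups overlapped.

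All 8 markers of slow and oxidative fibres, which are rich in these enzymes, were higher in High Run than in High Control mice, 3 of them with an unadjusted p under 0.05 (median log2 fold change 0.59). Their sum ranged from 3887 to 5232 CPM in High Control and from 4541 to 7546 CPM in High Run mice. In the Low groups 7 of the 8 were higher after running (median log2 fold change 0.22), with sums from 4207 to 6234 CPM in Low Control and from 3632 to 8673 CPM in Low Run mice. The part of fibre composition in the members' values was not tested. The 4 erythroid markers were also higher in High Run mice, all with an unadjusted p under 0.05, and 6 macrophage markers were higher after running in both frailty groups, 1 with an unadjusted p under 0.05 for Low mice and 3 for High mice. All 6 markers of skeletal muscle fibres were lower in High Run mice (median log2 fold change -0.28), 1 with an unadjusted p under 0.05, with sums from 147786 to 171763 CPM in High Control and from 107633 to 147429 CPM in High Run mice. In the Low groups 5 of these 6 were higher after running (median log2 fold change 0.16) and 1, Myh4, was lower with an unadjusted p under 0.05. Mean Myh4 was 55985 CPM in Low Control and 40069 in Low Run mice, and 53839 CPM in High Control and 39645 in High Run mice. All 6 adipocyte markers were lower in High Run mice, none with an unadjusted p under 0.05, with sums from 98.7 to 319 CPM in High Control and from 117 to 204 CPM in High Run mice. Their part in the members' values was not tested.

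Whether the running difference itself differed between frailty groups was tested as the Frailty by Run interaction, positive where the difference was higher in High than in Low mice. The interaction was above 0 for 8 of the 10 members, with a median of 0.15 on the log2 scale against 0.03 over all genes, and 46.9% of all tested genes were below 0. It was 0.91 for Cd36 (SE 0.44, interval -0.03 to 1.84; adjusted p = 0.600 in edgeR), 0.51 for Lpl (SE 0.37), 0.34 for Cpt1b (SE 0.33), 0.34 for Acadl (SE 0.37) and 0.23 for Fabp3 (SE 0.44). For Hadhb, Hadha, Acadvl, Acadm and Cpt2 it lay between -0.24 and 0.06. No member and 0% of all genes passed in edgeR's test, in which the unadjusted p was below 0.05 for 1342 genes (7.93%) but no member. DESeq2's Wald test called 1 gene and voom 0, with no member among them. Both groups that hold the mice standing apart, Low Control with D9 and High Run with D62, enter this comparison with the same sign. Without these mice the interaction was 0.20 for Cd36, 0.12 for Lpl, 0.13 for Cpt1b, -0.11 for Acadl and -0.12 for Fabp3, and 6 of the 10 members were below 0 in place of 2. The members' median was then -0.044, and it was -0.018 without D9 alone. Leaving out single mice moved the interaction of Fabp3 between 0.0025 (without D9) and 0.70 (without D23). It moved that of Acadl between 0.042 (without D9) and 0.60 (without D68), and that of Cpt1b between 0.23 (without D62) and 0.55 (without D53). All 4 erythroid markers also had an interaction above 0 with an unadjusted p under 0.05 (median 3.27). With no unadjusted p under 0.05, all 8 slow-fibre (median 0.34) and all 6 macrophage markers (median 0.42) were above 0 and 5 of the 6 skeletal muscle fibre markers below 0 (median -0.45). The part of these markers in the members' values was not tested.

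Between sedentary mice, 8 of the 10 members were lower in High Control than in Low Control mice (52.8% of all genes were), with a median log2 fold change of -0.13 against -0.02 over all genes. The difference was widest for Cd36, at 543 ± 252 CPM in Low Control (SD, n = 4) and 334 ± 53.4 CPM in High Control mice (n = 3), a log2 fold change of -0.70 (SE 0.33, interval -1.40 to -0.01; adjusted p = 0.704 in edgeR). The highest High Control value (379.6 CPM) lay above the lowest Low Control value (367 CPM), and without D9 and D62 the log2 fold change was -0.34 (adjusted p = 0.996 in edgeR). Fabp3 (-0.34), Cpt1b (-0.28), Acadl (-0.23), Lpl (-0.15), Acadvl (-0.11), Hadhb (-0.05) and Hadha (-0.03) were lower and Cpt2 (0.10) and Acadm (0.07) higher. The value of Fabp3 was -0.81 without D23 and -0.12 without D9. Cd36 was the 1 member of 10 with an unadjusted p under 0.05, against 992 of all genes (5.86%), and 0% of all genes passed in edgeR's test. DESeq2 called 2 genes and voom 0, none of them a member. Without D9 and D62, 3 of the 10 members were lower in place of 8 and the median was 0.054, as it was without D9 alone, whereas it was -0.26 without D98. All 4 erythroid markers were lower in High Control than in Low Control mice, 3 of them with an unadjusted p under 0.05 (median -1.57), with sums from 478 to 2322 CPM in Low Control and from 301 to 476 CPM in High Control mice. With no unadjusted p under 0.05, 7 of the 8 slow-fibre (median -0.22) and all 6 macrophage markers (median -0.30) were lower and 5 of the 6 skeletal muscle fibre markers higher (median 0.27). The part of these markers was not tested. The Low comparison, the interaction and the comparison of sedentary mice all use these 4 Low Control mice, so their values are not independent of each other.

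Among mice that ran, High and Low groups were close. Members' log2 fold changes in High Run compared to Low Run ranged from -0.14 to 0.36, with 6 higher and 4 lower (47.8% of all genes were) and a median of 0.01 against 0.01 over all genes. Leaving out single mice, the members' median ranged from -0.042 (without D62) to 0.12 (without D68). In edgeR's test no member and 0% of all genes passed, and no member but 424 genes (2.51%) had an unadjusted p under 0.05. Neither DESeq2 nor voom called any gene. The 4 erythroid markers were higher in High Run mice here too, all with an unadjusted p under 0.05 (median 1.68), which was not tested as a part of the members' values. Averaged over both frailty groups, running went with lower levels of 9 of the 10 members (46.6% of all genes), with log2 fold changes from -0.35 to 0.08 and a median of -0.13, or -0.049 without D9. In the same average, all 6 adipocyte markers were lower (median log2 fold change -0.55) and all 8 slow-fibre (median 0.37) and all 6 macrophage markers (median 0.61) higher, with 3 of each list at an unadjusted p under 0.05, and their part was not tested. Cpt1b again differed most (log2 fold change -0.35, SE 0.16; adjusted p = 0.577 in edgeR). In this average 0% of all genes passed in edgeR, 1461 genes (8.63%) and no member had an unadjusted p under 0.05, and DESeq2 called 106 genes and voom 0, with no member among them. In none of the 4 comparisons of 2 groups were the groups of any member free of overlap, while 6.93% of all genes were so between the Low groups, 7.07% between the High groups, 10.4% between the control groups and 1.5% between the groups that ran.

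Many of the members also varied together from mouse to mouse, Cpt1b less so. D9 was the highest of the 15 mice for 8 members and among the top 3 for 9, while Low Run mouse D68 was among the top 3 for 7 members and Low Run mouse D57 among the bottom 3 for 8. Across the 45 pairs of members, Pearson's r of log2 CPM over the 15 mice had a median of 0.507 and ranged from -0.335 (Cpt1b with Acadm) to 0.883 (Acadvl with Hadha). The median was 0.494 over the 13 mice without D9 and D62 and 0.518 after the group means were removed. For Cpt1b, r with the other members ranged from -0.335 (Acadm) to 0.596 (Cd36). These coefficients describe libraries that share depth and scaling, and no value for pairs of other genes is given beside them. Hadha and Hadhb had r = 0.811, and 0.901 when the reads of the copies were added to Hadhb. Pairs on different chromosomes had deposited values on either side of 0.811, such as 0.883 (Acadvl with Hadha) and 0.810 (Acadvl with Hadhb). The part of the shared promoter region was not tested. Cpt2 and Hadha had r = 0.804 (0.806 without D9 and D62), whereas Cd36 and Lpl, both genes of uptake, had r = 0.684, or 0.257 without D9 and D62. For the other pairs of uptake genes, Cd36 with Fabp3 had r = 0.732, or 0.662 without D9 and D62. Lpl with Fabp3 had r = 0.693, or 0.544 without D9 and D62. D62 had high Cd36, Lpl and Acadl together with low Acadm, Acadvl, Cpt2 and Hadha, a combination not seen in D9.

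**Figure D3:**
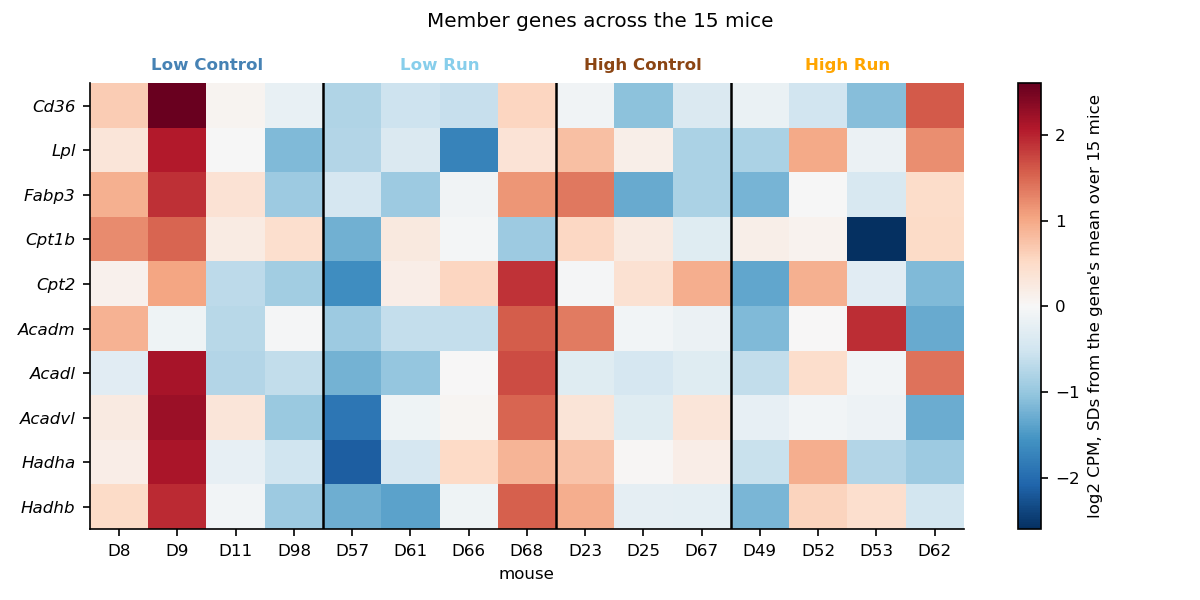
Level of each member (rows) in each mouse (columns, by group), as log2 CPM in standard deviations from that gene's mean over the 15 mice (colour, red above and blue below the mean). D9 is red in 9 rows, D57 is blue in all rows, and D62 combines red and blue rows.

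A score per mouse, the mean of these standardized values over the 10 members, ran from -1.23 in D57 to 1.74 in D9. It ranged from -0.59 to 1.74 in Low Control, from -1.23 to 1.02 in Low Run, from -0.26 to 0.56 in High Control and from -0.72 to 0.34 in High Run mice, so each group contained mice above and below 0. Of all other tested genes, Etfdh had the highest Pearson's r with the score (0.953 over 15 mice). Its Spearman's rho was 0.875, below the 0.886 of Csrnp1. It encodes the electron transfer flavoprotein dehydrogenase, which passes electrons from the acyl-CoA dehydrogenases to ubiquinone. Without D9 and D62 its r of 0.938 over 13 mice was again the highest, but its rho of 0.819 was below those of Csrnp1 (0.868), Hsdl2 (0.852), Gm19587 (0.852) and Ubqln4 (0.835). After the group means were removed r was 0.959. Etfdh was at 198, 254, 159 and 151 CPM in Low Control, 134, 146, 172 and 245 in Low Run, 212, 162 and 172 in High Control and 159, 175, 176 and 179 in High Run mice. Its own log2 fold change was -0.13 between the Low groups and -0.08 between the High groups (adjusted p = 0.760 and 0.983 in edgeR). Other genes with a high r were Mars (0.898), Csrnp1 (0.896), Ubqln4 (0.896), Lsm14a (0.885), Hsdl2 (0.884), Zfand3 (0.876), Gm19587 (0.873) and Map2k3 (0.865). Likeness here is a description, since these genes were picked for it out of all those tested.

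**Figure D4:**
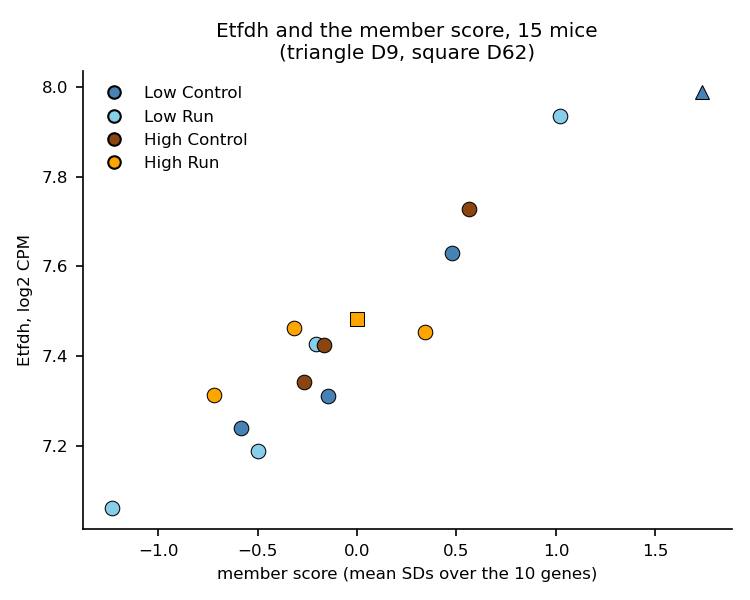
Log2 CPM of Etfdh (y axis) against the mean standardized level of the 10 members (x axis), with 1 point for each of the 15 mice, coloured by group; D9 is a triangle and D62 a square. Points lie along a rising line from D57 at the lower left to D9 at the upper right, with r = 0.953.

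The wider pathway was followed with a list of 61 further genes, all of which were tested. In the Low comparison 40 of the 61 were lower in Low Run mice and 21 higher, with a median log2 fold change of -0.15 against 0.02 over all genes. Of these, 9 had an unadjusted p under 0.05 and were lower (7.52% of all genes were) and 1 was higher (5.92% of all genes were), and none passed a false discovery rate of 0.1 in edgeR. In the High comparison 32 of the 61 were lower and 29 higher, with a median of -0.03 against 0.05 over all genes. There 2 had an unadjusted p under 0.05, both lower (1.90% of all genes were), and none passed.

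Among the genes of uptake and activation, 6 of 11 were lower in the Low comparison. Angptl4, a secreted inhibitor of lipoprotein lipase, was at 21.8, 36.8, 3.14 and 2.24 CPM in Low Control and at 6.14, 3.10, 3.20 and 6.62 CPM in Low Run mice. D8 and D9 were high while D11 and D98 lay near the lower end of the Low Run values, and the log2 fold change was -1.75 (SE 0.75), or -0.94 without D9 and D62. Acsl1, the main long-chain acyl-CoA synthetase of muscle, had a log2 fold change of -0.40 (SE 0.17) in the Low and -0.03 in the High comparison. Fabp5, another cytosolic carrier, had 0.44 (SE 0.29), or 0.28 without D9 and D62 and 0.77 without D11, and 0.15, or -0.024 without these mice. Adjusted p over all genes was 0.359 for both Angptl4 and Acsl1 in edgeR.

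Of the 8 genes of stored lipid, 7 were lower in the Low comparison. Lipe, hormone-sensitive lipase, was at 59.0, 84.6, 54.2 and 39.1 CPM in Low Control and at 34.3, 36.5, 30.99 and 37.2 CPM in Low Run mice. Every Low Run mouse lay below every Low Control mouse (3.59% of all genes were lower without overlap), and the log2 fold change was -0.77 (SE 0.21; adjusted p = 0.358 in edgeR). Without D9 and D62 it was -0.56. Of the 61 related genes, 3 were free of overlap between the Low groups (6.93% of all genes were). Besides Lipe these were Acad12 and Acads, both higher in Low Run mice. In the High groups Lipe was at 42.1, 58.7 and 41.2 CPM in control mice and at 35.0, 33.0, 37.4 and 52.7 CPM in mice that ran (log2 fold change -0.26, SE 0.23), and without D9 and D62 the log2 fold change was -0.44 (adjusted p = 0.647 in edgeR), whereas without D25 it was -0.075. Lipe is also abundant in adipocytes, whose 6 markers were lower in the Low comparison as given above. Abhd5, the activator of adipose triglyceride lipase, had a log2 fold change of -0.08 in the Low and -0.28 in the High comparison (SE 0.12; adjusted p = 0.956 in edgeR), and Plin2, a coat protein of lipid droplets, had -0.36 (SE 0.22), or -0.051 without D9, and -0.03.

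In the carnitine and malonyl-CoA group 6 of 7 genes were lower in the Low comparison. Acaca and Acacb encode the acetyl-CoA carboxylases, whose product malonyl-CoA inhibits carnitine palmitoyltransferase 1. Acacb, the form found at muscle mitochondria, was at 618, 946, 518 and 469 CPM in Low Control and at 212, 392, 473 and 323 CPM in Low Run mice. D66 lay just above D98 and the other Low Run mice lay below all Low Control mice, with a log2 fold change of -0.87 (SE 0.30; adjusted p = 0.358 in edgeR). In the High comparison it was 0.31 (SE 0.32), or 0.088 without D62, and the interaction was 1.18 (SE 0.44; adjusted p = 0.600 in edgeR), or 0.71 without D9 and D62. Acaca had log2 fold changes of -0.58 (SE 0.20, adjusted p = 0.358 in edgeR) and 0.10, with an interaction of 0.68 (adjusted p = 0.600 in edgeR). Its High value was 0.037 without D67 and 0.22 without D25. Slc22a5, the plasma membrane carnitine transporter, had -0.10 and -0.28 (SE 0.16), the latter -0.19 without D53. Its Low value was -0.031 without D8 and -0.20 without D98.

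The 18 other genes of matrix beta-oxidation and electron transfer were evenly split in the Low comparison, with 9 lower, 9 higher and a median log2 fold change of 0.00. Acad12, a further member of the acyl-CoA dehydrogenase family, was the gene of this group with an unadjusted p under 0.05, at 0.39 (SE 0.18; adjusted p = 0.362 in edgeR) and -0.02 in the High comparison. Without D9 and D62 it was 0.22 in the Low comparison, and its unadjusted p was no longer under 0.05. Acads, the short-chain enzyme, had 0.19 (SE 0.13) in the Low and -0.32 (SE 0.15; adjusted p = 0.956 in edgeR) in the High comparison, with an interaction of -0.50 (adjusted p = 0.600 in edgeR). The High value was -0.20 without D62, and also without D9 and D62 together, where its unadjusted p was no longer under 0.05. Acot2, a mitochondrial thioesterase, was at 252 CPM in D9 and 163 CPM in D62 and between 13.7 and 49.8 CPM in the other 13 mice. Its log2 fold changes of -1.80 (SE 0.87) and 1.45 (SE 0.95), with an interaction of 3.26 (SE 1.30, adjusted p = 0.600 in edgeR), became -0.23, -0.04 and 0.20 without those mice.

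Among 7 peroxisomal genes, 4 were lower in Low Run than in Low Control mice and 7 were lower in High Run than in High Control mice. Ehhadh, the bifunctional enzyme of peroxisomal beta-oxidation, had log2 fold changes of -0.43 (SE 0.18), or -0.28 without D9 and D62, and -0.18. Its High value was -0.31 without D67 and -0.099 without D23. Abcd3, a transporter of the peroxisomal membrane, had -0.15 and -0.25 (SE 0.14). Neither passed after adjustment in edgeR (adjusted p of 0.358 or above).

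Of 10 regulators and PPAR targets, 8 were lower after running in Low mice and 6 in High mice. Ppara, the PPAR that drives many beta-oxidation genes, was at 5.42, 7.95, 9.69 and 6.68 CPM in Low Control and at 2.65, 6.88, 3.67 and 2.86 CPM in Low Run mice. D61 lay within the Low Control range and the other Low Run mice below it, with a log2 fold change of -0.88 (SE 0.35; adjusted p = 0.358 in edgeR). In the High comparison it was 0.45 (SE 0.38), or 0.23 without D67 and 0.69 without D53, and the interaction was 1.33 (SE 0.51; adjusted p = 0.600 in edgeR). Rxra, its dimer partner, had -0.46 (SE 0.16; adjusted p = 0.358 in edgeR) and -0.37 (SE 0.18), lower in both. Pdk4, the kinase that turns off pyruvate dehydrogenase and a classical PPAR target, stood at 6837 CPM in D9 and 4684 CPM in D62. It was at 2650, 6837, 753 and 129.6 CPM in Low Control and at 765, 673, 516 and 568 CPM in Low Run mice, and the log2 fold change was -2.04 (SE 0.92; adjusted p = 0.363 in edgeR), or -0.91 without D9 and D62. In the High comparison it was 0.47 (SE 0.97), and -1.09 without those mice.

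**Figure D5:**
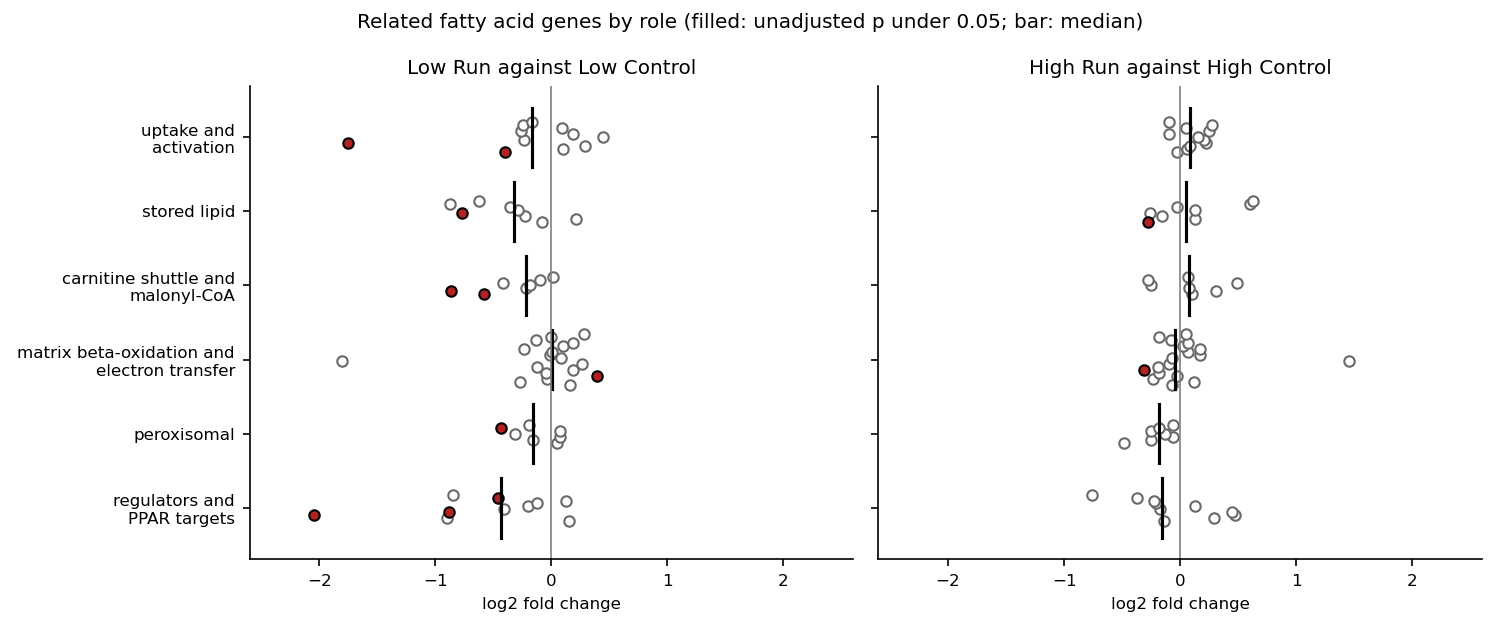
Log2 fold change (x axis) of the 61 related genes by role (y axis) in the Low (left) and High (right) comparisons, with 1 point for each gene, filled where the unadjusted p was under 0.05, and a bar for the median of each role. In the Low comparison 9 filled points lie below 0 and 1 above, and in the High comparison 2 lie below 0.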

How the data were processed

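RNA was extracted from about 25 mg of powdered gastrocnemius of each mouse, poly(A)-selected and sequenced as read pairs. The deposited table holds raw counts per gene: the authors mapped read pairs to mm10 using STAR 2.7.9a and then counted unique, properly paired fragments over non-mitochondrial genes of Ensembl build 100 with featureCounts (Subread 2.0.3 in the submitters' processing notes). FastQC 0.11.7 and DESeq2 1.32.0 are also named there. A table of transformed values was not used. Each library is 1 mouse, so p-values measure the spread between mice. In 21 within-group pairs, counts differed by more than sampling noise (chi-square per degree of freedom of 15.9 or above), so each library counted as a separate sample.

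The members and gene lists were chosen with earlier results of these data known. Members were the 10 genes listed by symbol. Related genes were to be named where called, and otherwise as the 3 of each role with the lowest unadjusted p in either running comparison (Low or High), the rest being given by counts; 2 genes that these rules select are not reported here. Genes most like the members were the 10 with the highest Pearson's r between their log2 CPM and the mean standardized log2 CPM of the members.

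Counts were filtered with filterByExpr, scaled by TMM and fitted with edgeR 4.0.16 (quasi-likelihood test, R 4.3.3) over all 15 mice with a mean for each group; comparisons were contrasts, with Benjamini-Hochberg adjustment over 16920 genes and a threshold of 0.1. The common biological coefficient of variation was 0.266. SE is the standard error of the log2 fold change and intervals are 95%. CPM per kb used the longest protein-coding transcript with a consensus coding sequence. Copies were found with BLAST+ 2.17.0 against GENCODE M21 transcripts. The fits were tested on simulated data with known changes. Alternatives were DESeq2 1.42.0 (Wald test), its size factors in edgeR, no filter, at least 10 counts in every mouse, the 2 groups alone, limma 3.58.1 voom with quality weights, an offset for length and GC content (loess span 0.3), a threshold of 0.05, each mouse left out, and D9 and D62 left out. D9 and D62 were picked for leaving out because they stood apart in these same expression data. Adding the reads of the copies to Hadhb and Fabp3 was chosen after seeing the data.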

Additional observations from a re-analysis of the deposited data

Results flagged for a closer look

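Among the 81 groups of 4 mice examined for the 10 members and 17 named related genes, 7 held a mouse far from the other 3 by Dixon's criterion, which chance passes in about 5% of groups. The 3 High Control mice were too few to be examined. In Low Control mice D9 stood apart, at 598 CPM of Acadl (next highest 331) and 17.3 CPM of Acad12 (next lowest 29.7). In Low Run mice D68 stood apart, at 433 CPM of Acadm (next highest 324) and 97.2 CPM of Acads (next highest 89.2). In High Run mice D62 was at 163 CPM of Acot2 (next highest 23.2) and 341 CPM of Acadvl (next lowest 409), and D53 was at 8.23 CPM of Cpt1b (next lowest 17.1).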

How the results depend on the processing

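Over 784 alternative values of 41 member results, 714 kept their direction, 70 changed sign and none became a call (lowest adjusted p 0.253, for Cd36 in the Low comparison without Low Control mouse D98). Of 715 alternative values of the named related genes, 21 changed sign and none became a call (lowest adjusted p 0.110, for Lipe in the Low comparison with no filter). No paired analysis was possible because the labels give animal numbers that no groups share. Causes were not tested. Values below are log2 fold changes unless they are counts, and "lower" counts members below 0.

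Genes called, 0 in the filtered edgeR fit of all mice, numbered 11 (Low), 15 (High), 1 (interaction), 2 (sedentary mice) and 106 (mean of both groups) in DESeq2, and 86, 19 and 4 for Low, High and interaction, 6 between mice that ran and 81 for the mean with no filter. With voom 45 were called in High. Without a filter 4 members were lower in the interaction (Acadvl -0.0041, Hadha -0.00065). With voom 4 members were lower in the interaction (Acadvl -0.065, Hadha -0.012) and 3 between sedentary mice (Lpl 0.054, Acadl 0.045, Acadvl 0.037, Hadha 0.075, Hadhb 0.040), while Low gave Acadl 0.098 and Hadha 0.0028 and High gave Angptl4 -0.99, Plin2 0.043, Acad12 0.13 and Pdk4 -1.18. Length and GC offsets gave Cpt2 -0.060 and Hadha 0.031 in Low, Hadha -0.22 in the interaction and Hadha 0.11 between sedentary mice. Adding the copies gave Hadhb -0.0023 in the interaction.

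Without D9 and D62 together, Low gave Acadl 0.20 and Acadvl 0.020, and High gave Cd36 -0.044, Lpl -0.015, Angptl4 -0.65, Fabp5 -0.024, Plin2 0.051, Acad12 0.035, Acot2 -0.037 and Pdk4 -1.09. The interaction then had 6 members lower (Fabp3 -0.12, Acadm 0.026, Acadl -0.11, Acadvl -0.091, Hadha -0.069, Hadhb -0.020), and sedentary mice 3 (Lpl 0.12, Acadl 0.065, Acadvl 0.048, Hadha 0.087, Hadhb 0.052).

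Leaving out single mice, the members lower numbered from 7 (without D9) to 10 in Low, 4 (without D23) to 9 in High, 1 to 5 (without D9) in the interaction, 3 (without D9) to 9 between sedentary mice and 2 (without D68) to 8 (without D57) between mice that ran. Low ranges were Acadl -0.36 to 0.20, Acadm -0.15 to 0.038, Acadvl -0.29 to 0.020 and Cpt2 -0.038 to 0.18. High ranges were Cd36 -0.044 to 0.45, Lpl -0.038 to 0.26, Fabp3 -0.32 to 0.38, Cpt1b -0.30 to 0.032, Acadm -0.23 to 0.019, Hadhb -0.11 to 0.020, Acad12 -0.19 to 0.035, Acot2 -0.037 to 1.88, Acsl1 -0.14 to 0.11, Angptl4 -0.65 to 0.53, Fabp5 -0.024 to 0.39, Pdk4 -1.09 to 0.85 and Plin2 -0.087 to 0.051. Interaction ranges were Acadm -0.20 to 0.066, Acadvl -0.16 to 0.16, Hadha -0.11 to 0.089 and Hadhb -0.039 to 0.19. Between sedentary mice they were Acadl -0.34 to 0.065, Acadm -0.028 to 0.13, Acadvl -0.22 to 0.048, Hadha -0.084 to 0.087, Hadhb -0.12 to 0.052 and Lpl -0.31 to 0.12. The count of all genes with an unadjusted p under 0.05 in Low, 2274 with every mouse, was 846 without D9. In the interaction, 1342 became 785 without D9 and 2357 without D53, between sedentary mice 992 became 443 without D9 and 1805 without D98, and between mice that ran 424 became 979 without D53.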
